A study of Mus musculus with 6 samples.

Results

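Mitosis is driven by a set of genes, many of which cells transcribe late in the cycle. Here 58 mitosis genes were examined in NIH3T3 cells, an established line of mouse embryonic fibroblasts. They were taken from a fixed list of symbols for mitosis, the kinetochore and the spindle, matched by Ensembl ID to the mouse GENCODE annotation. The list was chosen with earlier results of these data known. All 58 symbols were found once each among the 24938 genes of the deposited tables, and all 58 passed the filter on low values, which 12222 genes passed. The list was divided by role into 11 groups of 3 to 8 genes. Their RNA was measured in 3 libraries from NIH3T3 cells with overexpression of F-CircAE and in 3 libraries from wild type NIH3T3 cells. F-CircAE is a fusion circular RNA, a closed loop of RNA, from the AML1-ETO translocation of leukaemia. The labels give neither the construct nor a vector control, so the overexpression procedure and the circular RNA cannot be told apart. Separate cultures are not stated either, and p-values here reflect variation among these 6 libraries, some of which may be technical.

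A cell enters mitosis when cyclin-dependent kinase 1 is activated by A- and B-type cyclins, and Aurora and Polo-like kinases then organise the spindle. Kinetochores attach chromosomes to microtubules, and the spindle checkpoint holds back the anaphase-promoting complex (APC/C) until every chromosome is attached. The APC/C then triggers destruction of securin and cyclin B, after which the chromosomes separate and the cell divides. Most of these genes are silent or low in resting fibroblasts, so their RNA is widely read as a measure of how many cells in a culture are cycling. In bulk RNA, fewer cells in mitosis and less RNA per mitotic cell cannot be told apart.

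Many promoters of this class carry the cell cycle genes homology region, whose usual core is TTTGAA, close to the transcription start, together with CCAAT boxes bound by NF-Y. Both motifs were searched on both strands, without regard to the other, in RefSeq promoter windows of 300 bases (250 before and 50 after the start, build GRCm38.p6). Windows were given for 48 of the 58 genes. TTTGAA was found in 37 of their 51 windows (72.5%), against 17.9% of all 32851 windows. CCAAT was found in 39 of the 51 windows (76.5%), against 37.4% of all windows. Both occurred in 33 windows (64.7%), against 6.95% of all windows, and the matches overlapped each other in 1 of the 51. A match describes the letters and is not shown to be a site.

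The 100 bases before the start are given for 6 of the 7 genes whose groups did not overlap in FPKM, and for Cdk1 and Ccnb1, the kinase and cyclin that start mitosis. TTTGAA or CCAAT on either strand (TTCAAA or ATTGG when reversed) is in capitals. The stretches are, on GRCm38.p6, chr4:118437344-118437443 (minus strand) for Cdc20, chr3:135212463-135212562 (plus) for Cenpe, chr2:118598111-118598210 (plus) for Bub1b, chr7:80294376-80294475 (plus) for Prc1, chr19:37376282-37376381 (plus) for Kif11, chr2:91526662-91526761 (plus) for Ckap5, chr10:69352913-69353012 (minus) for Cdk1 and chr13:100786487-100786586 (minus) for Ccnb1.
Cdc20: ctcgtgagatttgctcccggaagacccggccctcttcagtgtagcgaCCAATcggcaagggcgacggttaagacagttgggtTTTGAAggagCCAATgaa
Cenpe: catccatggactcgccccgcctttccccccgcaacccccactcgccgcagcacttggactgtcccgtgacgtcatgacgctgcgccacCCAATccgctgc
Bub1b: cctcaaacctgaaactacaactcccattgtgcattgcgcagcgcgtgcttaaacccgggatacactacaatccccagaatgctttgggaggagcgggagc
Prc1: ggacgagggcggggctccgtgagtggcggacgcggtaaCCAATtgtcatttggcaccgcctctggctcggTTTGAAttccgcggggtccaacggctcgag
Kif11: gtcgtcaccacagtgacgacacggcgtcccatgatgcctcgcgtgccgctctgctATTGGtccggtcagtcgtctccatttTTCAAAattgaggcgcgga
Ckap5: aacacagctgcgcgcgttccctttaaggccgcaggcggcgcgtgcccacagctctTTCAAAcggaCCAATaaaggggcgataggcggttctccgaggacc
Cdk1: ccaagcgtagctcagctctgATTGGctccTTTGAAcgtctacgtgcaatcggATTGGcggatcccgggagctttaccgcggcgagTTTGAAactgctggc
Ccnb1: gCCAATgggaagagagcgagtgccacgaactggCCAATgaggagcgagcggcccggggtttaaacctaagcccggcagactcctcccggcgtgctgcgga

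Cdc20, Kif11, Ckap5 and Cdk1 held both motifs in this stretch. Prc1 has 2 listed starts, and both motifs lie in the stretch printed, before the second start. Only CCAAT lies wholly in the 100 bases before the first (chr7:80294351-80294450). The TTTGAA begins at -5 from that first start and runs across it. Of the others, Cenpe and Ccnb1 held CCAAT only, and Bub1b held neither. The Bub1b window has TTTGAA only after the start. In the expression data the 34 matched genes with TTTGAA anywhere in a window had a median log2 fold change of 0.07, and the 14 without it one of 0.09.

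The libraries were sequenced to similar depth. The reads behind the FPKM values (fragments scaled to gene length and library size) numbered 16969814 to 21843803 in the overexpression libraries and 19001957 to 20936522 in the wild type libraries, and each of the 58 genes had at least 318 reads in every library. Fibroblast markers were present, with summed levels of 10 genes of 1785 to 2199 FPKM with overexpression and 1989 to 2514 FPKM in wild type. Summed markers of other cell types were 6.49 to 7.37 FPKM with overexpression and 4.96 to 8.49 FPKM in wild type for 4 epithelial genes, 4.81 to 6.44 and 4.41 to 6.11 FPKM for 5 haematopoietic genes, and 0.774 to 1.08 and 0.606 to 1.104 FPKM for 3 endothelial genes. Ptprc, Tie1 and Krt5 were below 1 FPKM in every library, whereas Krt14, Cd68 and Cdh1 were above it in all 6. Wild type replicates 1 and 2 were close to counting noise, with a chi-square per gene of 1.46 over all genes and 1.72 over the 58 (counting error alone gives 1). The 14 other pairs of libraries had values of 5.15 to 25.1 over all genes and 3.46 to 18.0 over the 58. Spread and intervals that treat these replicates as separate may therefore be too narrow. Overexpression replicate 1 and wild type replicate 3 lay at one end of the leading principal component (16.6 and 11.2), with wild type replicates 1 and 2 at the other end (-13.9 and -13.3). Fn1, a fibroblast matrix gene, was at 243, 345 and 343 FPKM with overexpression and 541, 537 and 319 FPKM in wild type. Not every fibroblast marker followed Fn1. Vim was at 566.5, 601.3 and 664.6 FPKM with overexpression and 563.0, 560.3 and 606.4 FPKM in wild type. The lowest value of a fibroblast marker was 0.873 FPKM, for Thy1 in wild type replicate 3. The part of these differences in the results that follow was not tested.

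None of the 58 genes differed between F-CircAE overexpression and wild type after adjustment over all tested genes (limma, smallest adjusted p = 0.842 within the list). No gene in the whole table passed either (0%). At an unadjusted p below 0.05 there were 3 of the 58, Cdc20, Cenpe and Bub1b, all with higher means in the overexpression libraries, beside 2.86% of tested genes in that direction and 2.31% in the other. The estimates were small and nearly all on one side of 0. The log2 fold change of log2(FPKM + 1) ranged from -0.03 (Spc25) to 0.19 (Ect2) with a median of 0.08, beside a median of 0.01 over all tested genes. It was above 0 for 55 of the 58, beside 53.2% of tested genes, and the ratio of mean FPKM lay between 0.98 and 1.15. All 58 had 95% intervals lying inside a 1.5-fold change in both directions, as did 89.1% of tested genes. For a 1.25-fold change it was 47 of the 58 and 57.99% of tested genes. When wild type replicates 1 and 2 counted as 1 library it was 38 of the 58. The share of tested genes in that fit was not computed, and 57.99% does not belong to it.

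**Figure D1:**
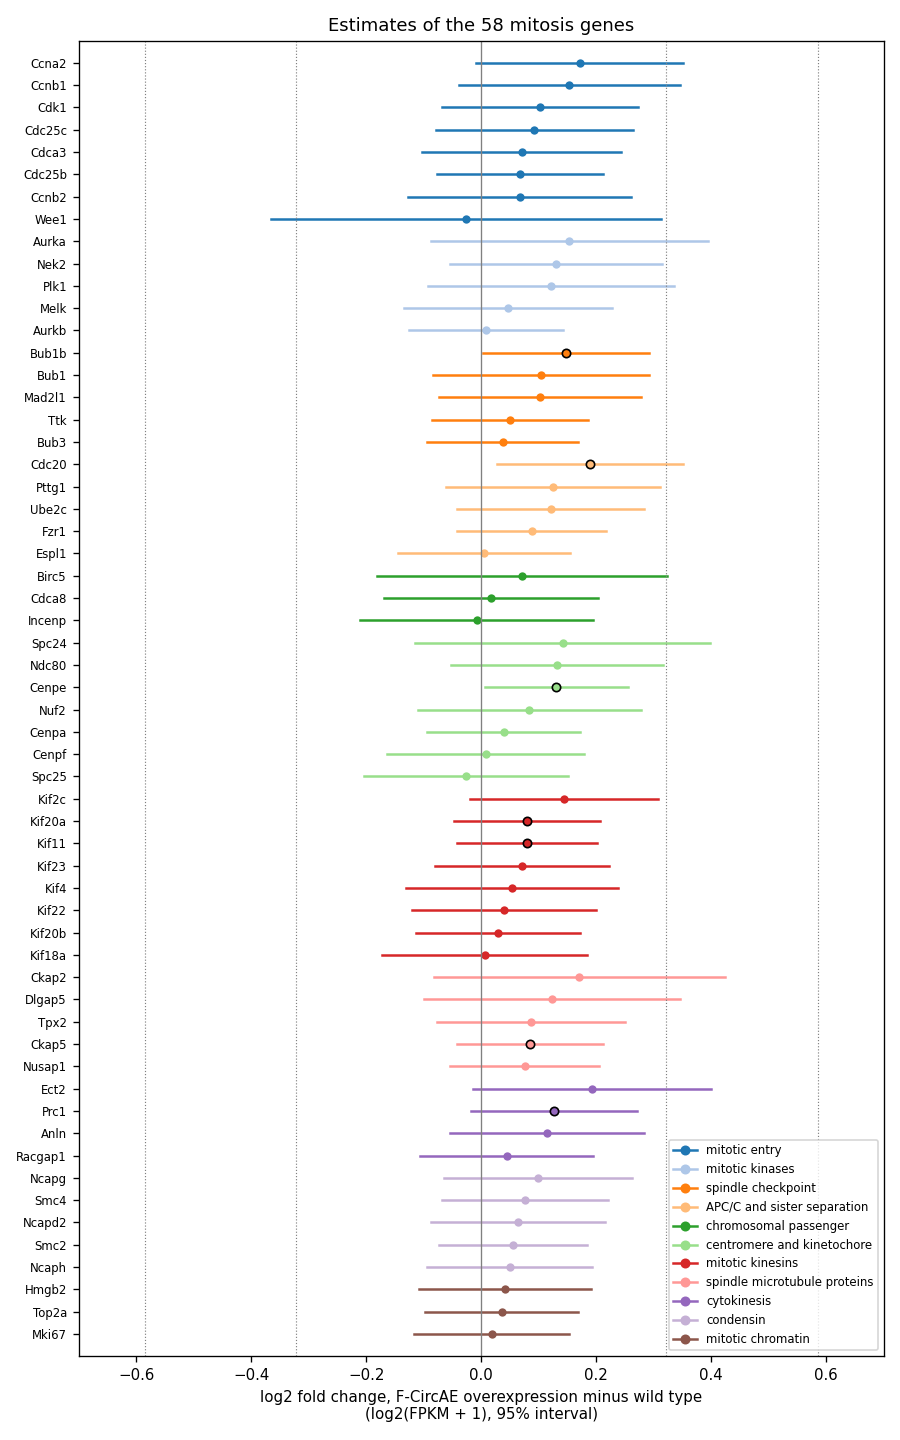
Estimated log2 fold changes of the 58 genes (x axis, log2(FPKM + 1), F-CircAE overexpression minus wild type) with 95% limma intervals, 1 row per gene, coloured by role. Black rims mark the 7 genes whose groups did not overlap; dotted lines mark 1.25-fold and 1.5-fold changes. The estimates run from -0.03 to 0.19, and every interval stays inside the 1.5-fold lines.

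The sign of the estimates depended on the scaling of the libraries. The FPKM sums were 373700 to 380900 with overexpression and 353500 to 370500 in wild type. With every library rescaled to the same sum, 37 of the 58 genes had estimates above 0, beside 32.9% of tested genes, and the median was 0.02, beside -0.05 over all tested genes. Rescaling to the same upper quartile gave 49 of 58 above 0, beside 45.4% of tested genes, with a median of 0.05, and quantile normalization gave 50 of 58, beside 52.6%, with a median of 0.06. The distance between the median of the 58 genes and that of all tested genes was 0.07 as deposited, 0.06 after rescaling to the sum, 0.07 after rescaling to the upper quartile and 0.05 after quantile normalization.

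**Figure D2:**
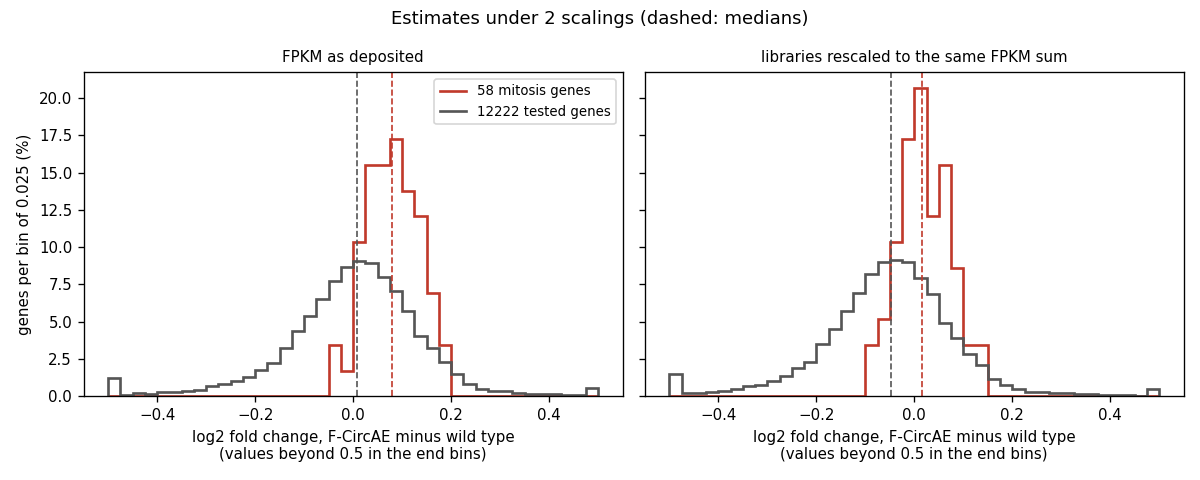
Distribution of log2 fold changes (x axis, F-CircAE overexpression minus wild type; y axis, percent of genes per bin) for the 58 mitosis genes and the 12222 tested genes, with FPKM as deposited (left) and with libraries rescaled to the same FPKM sum (right); dashed lines are medians. The median of the 58 is 0.08 on the left and 0.02 on the right, and it lies above that of all tested genes in both panels.

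The higher values came from overexpression replicates 1 and 2. Overexpression replicate 1 was the highest of the 6 libraries for 34 of the 58 genes, beside 26.2% of all tested genes, and replicate 2 for 18, beside 13.3%. Overexpression replicate 3 was the highest for 1 gene, beside 13.8%. Replicate 1 exceeded every wild type library in 44 of the 58 genes and replicate 2 in 37, where the shares of all tested genes were 32.7% and 28.2%. Replicate 3 did so in 12 of the 58, beside 23.5% of all tested genes.

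The same order of libraries was seen in the typical gene. The median over the 58 genes of the deviation of log2(FPKM + 1) from the gene's own mean was 0.10, 0.05 and -0.02 in overexpression replicates 1, 2 and 3, and -0.05, -0.03 and -0.03 in wild type replicates 1, 2 and 3. The 58 genes took 0.7295%, 0.695% and 0.671% of all reads in overexpression replicates 1, 2 and 3, and 0.679%, 0.677% and 0.6765% in the wild type libraries. On this share the groups overlapped, because overexpression replicate 3 was below all 3 wild type libraries. Overexpression replicate 1 lay at one end of the leading component, as did wild type replicate 3. Without overexpression replicate 1, 47 of the 58 genes had estimates above 0, beside 54.5% of tested genes, with a median of 0.06. Without overexpression replicate 3 it was 57 of 58, beside 52.7%, with a median of 0.10.

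**Figure D3:**
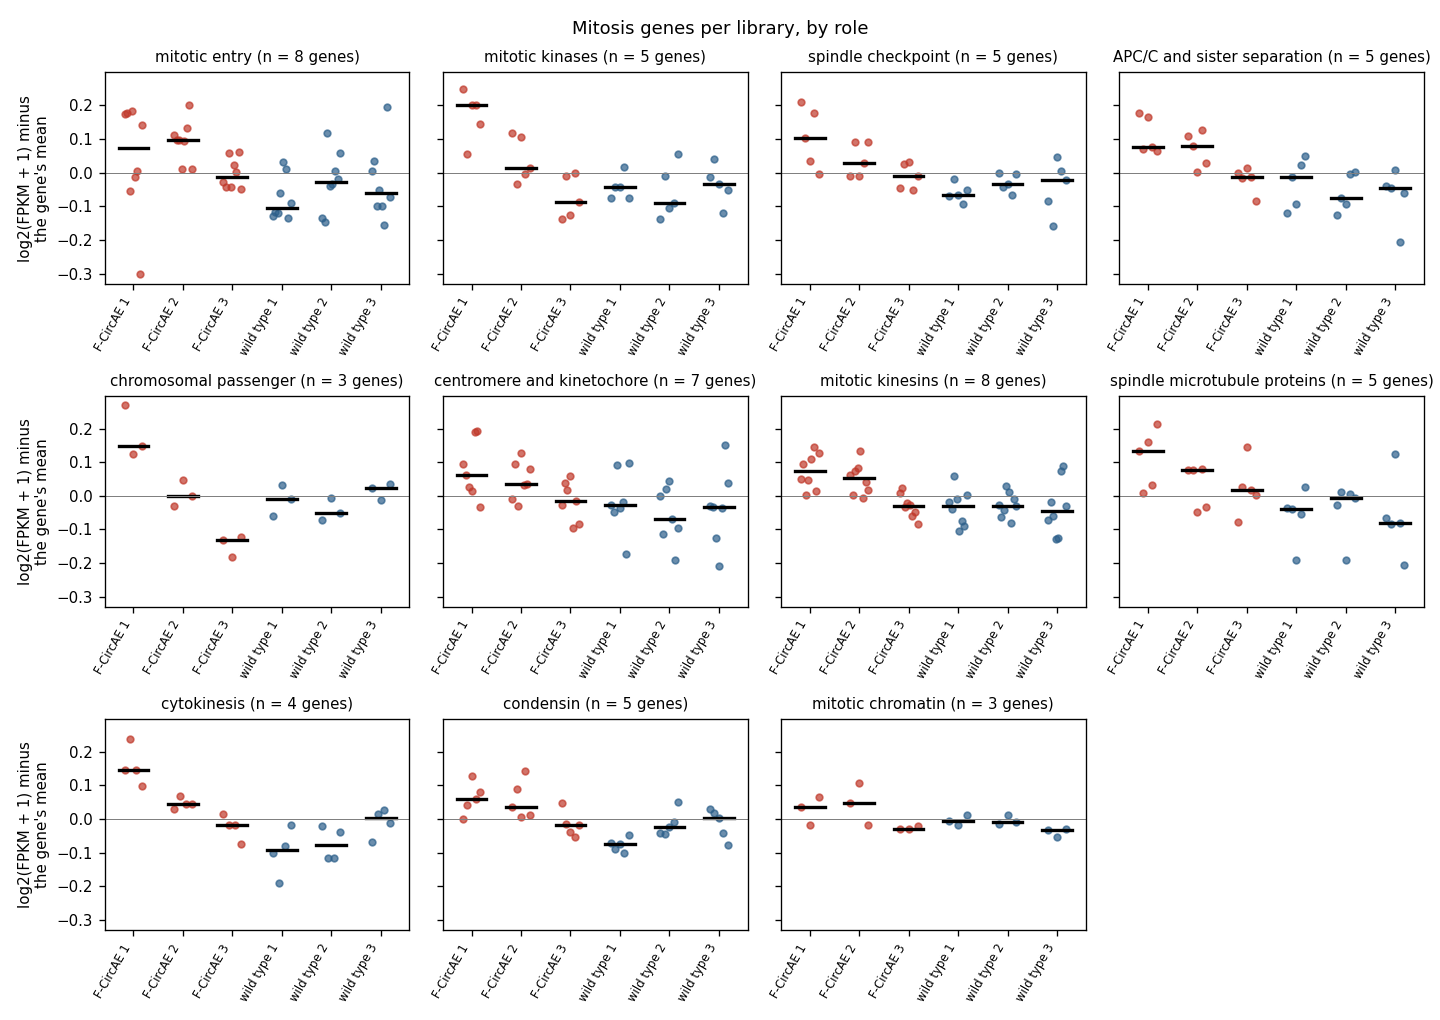
Deviation of log2(FPKM + 1) from the gene's mean over the 6 libraries (y axis) in each library (x axis), 1 panel per role. Points are genes and black lines their medians, red for F-CircAE overexpression and blue for wild type. Medians are highest in overexpression replicate 1 or 2 in all 11 panels, and in the mitotic kinases and chromosomal passenger genes overexpression replicate 3 is at -0.09 and -0.13.

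In 7 of the 58 genes all 3 overexpression libraries were above all 3 wild type libraries, beside 6.81% of tested genes in that direction, and in no gene were they all below, beside 4.69%. The 7 were Cdc20, Cenpe, Bub1b, Prc1, Ckap5, Kif11 and Kif20a. This count depended on single libraries. It was 11 without wild type replicate 1 (8.80% of tested genes), 17 without replicate 2 (9.24%) and 19 without replicate 3 (21.8%). Without overexpression replicates 1, 2 and 3 in turn it was 10 (12.4%), 9 (9.47%) and 28 (16.0%). With wild type replicates 1 and 2 averaged it was 14 (8.84%), and with the libraries rescaled to the same FPKM sum it was 2 (2.32%). Leaving out a library makes overlap less likely for every gene, so each count is to be read against its own share.

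Cdc20, the APC/C activator that the spindle checkpoint restrains, had the smallest p of the 58. It lies on chromosome 4, and its level was 66.7, 63.7 and 58.8 FPKM in overexpression replicates 1, 2 and 3, against 54.2, 53.9 and 57.3 FPKM in wild type replicates 1, 2 and 3. The groups did not overlap, but the lowest overexpression library and the highest wild type library were both replicate 3 and lay close together. The log2 fold change was 0.19 (SE 0.07, limma adjusted p = 0.842). Exons of Cdc20 share 53 bases with Elovl1 on the other strand, and the strand setting of the authors' counting is unknown here. Such overlap touches 16 of the 58 genes. The separase gene Espl1, whose product cuts cohesin, showed no such difference, with 17.5, 17.0 and 15.7 FPKM with overexpression and 17.3, 16.7 and 16.0 FPKM in wild type (log2 fold change 0.0047, limma adjusted p = 0.995). The 3 other genes of APC/C activity and sister separation were Ube2c (the APC/C ubiquitin-conjugating enzyme), Pttg1 (securin) and Fzr1 (another APC/C activator). They had overlapping groups and log2 fold changes of 0.12, 0.12 and 0.09, in that order.

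**Figure D4:**
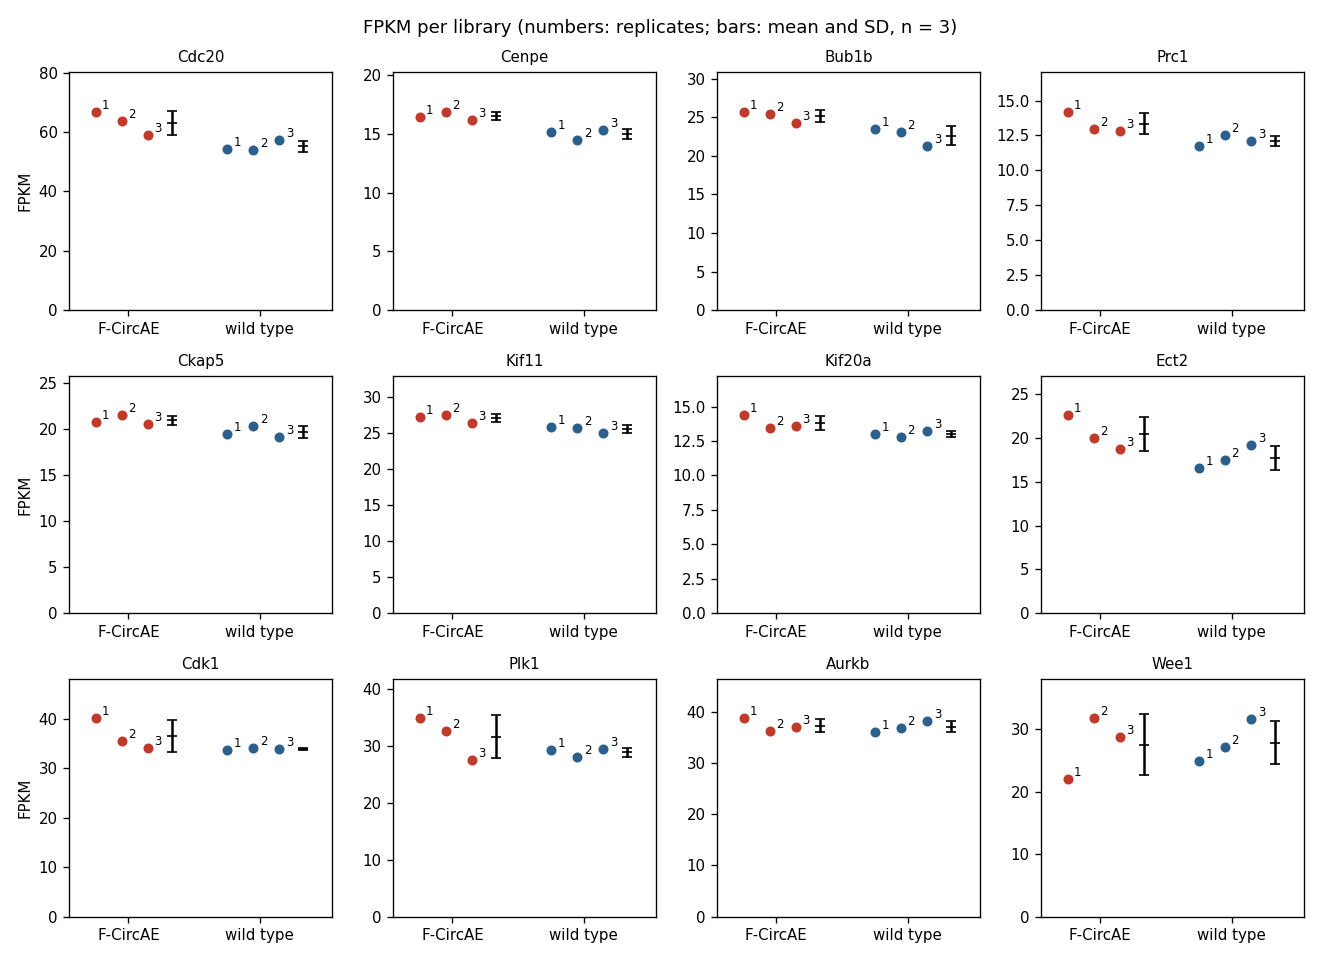
FPKM in each library for the 7 genes whose groups did not overlap (first 7 panels) and for Ect2, Cdk1, Plk1, Aurkb and Wee1. The y axis starts at 0, F-CircAE overexpression (red) stands left of wild type (blue), small numbers are replicates, and bars are mean and SD (n = 3). The difference between group means is small beside the level in every panel. The groups of Ect2, Cdk1, Plk1, Aurkb and Wee1 overlap, and Wee1 is lowest in overexpression replicate 1.

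Counts above 0 by role, here and in the paragraphs that follow, are for FPKM as deposited, beside 53.2% of tested genes. Among genes of mitotic entry, 7 of 8 had estimates above 0. None had groups that did not overlap, beside 6.81% of tested genes with overexpression higher and 4.69% with it lower. Ccna2, which encodes cyclin A, had 42.8, 40.9 and 37.0 FPKM with overexpression, against 34.5, 34.4 and 37.9 FPKM in wild type (log2 fold change 0.17, SE 0.08, limma adjusted p = 0.842). Overexpression replicate 3 lay below wild type replicate 3. Its exons share 510 bases with Exosc9 on the other strand. Ccnb1, the main B-type cyclin, had 30.5, 28.8 and 26.0 FPKM with overexpression and 24.65, 24.1 and 27.5 FPKM in wild type, with the same overlap of the replicates numbered 3. Cdk1, the kinase these cyclins activate, had 40.1, 35.5 and 34.1 FPKM with overexpression and 33.7, 34.2 and 34.0 FPKM in wild type. The wild type values were nearly equal, and only overexpression replicates 1 and 2 stood above them.

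Wee1, which encodes the kinase that holds Cdk1 inactive, departed from this pattern. It had 22.1, 31.75 and 28.8 FPKM with overexpression, against 24.95, 27.1 and 31.6 FPKM in wild type. It was the 1 member that was lowest in overexpression replicate 1, and its log2 fold change of -0.03 had the widest interval of the 58 (-0.37 to 0.31, limma adjusted p = 0.979). The sign turned without overexpression replicate 1 (0.12) and without wild type replicate 3 (0.06). It also turned with array weights, at 0.22, and at 0.095 when wild type replicates 1 and 2 were averaged as well. The phosphatase genes Cdc25b and Cdc25c, which reverse the action of Wee1, had overlapping groups and log2 fold changes of 0.07 and 0.09. Ccnb2 and Cdca3 stood at 0.07 each.

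All 5 mitotic kinases had estimates above 0 (beside 53.2% of tested genes), with a median of 0.12. Rescaled to the same FPKM sum, Aurkb turned to -0.055. The 5 kinases differed widely between overexpression libraries. Their median deviation was 0.20, 0.01 and -0.09 in overexpression replicates 1, 2 and 3, and -0.04, -0.09 and -0.03 in wild type replicates 1, 2 and 3. Aurka, the kinase of spindle poles, had 22.7, 20.6 and 17.1 FPKM with overexpression and 17.9, 17.1 and 18.7 FPKM in wild type (log2 fold change 0.15, SE 0.10, limma adjusted p = 0.843). Its spread within the overexpression group was wider than the difference between the means, 20.1 ± 2.81 against 17.9 ± 0.81 FPKM (SD, n = 3). Aurkb, the kinase of the chromosomal passenger complex, was level, with 38.7, 36.2 and 36.9 FPKM with overexpression and 36.1, 36.9 and 38.2 FPKM in wild type (log2 fold change 0.0081, limma adjusted p = 0.984).

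Nek2, a centrosomal kinase, had 12.4, 10.6 and 10.6 FPKM with overexpression and 10.75, 9.90 and 9.69 FPKM in wild type (log2 fold change 0.13). Its groups overlapped through wild type replicate 1. Plk1, the Polo-like kinase, had 34.8, 32.55 and 27.5 FPKM with overexpression, against 29.2, 28.0 and 29.4 FPKM in wild type, so its lowest and its 2 highest libraries were all overexpression libraries. Melk stood at a log2 fold change of 0.05.

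The partners of Aurkb in the chromosomal passenger complex did not separate the groups. Birc5, which encodes survivin, had 46.0, 37.2 and 34.6 FPKM with overexpression and 36.5, 36.1 and 38.7 FPKM in wild type, and its estimate of 0.07 turned to -0.05 without overexpression replicate 1. Incenp, the scaffold of the complex, had 34.1, 32.3 and 27.4 FPKM with overexpression and 31.9, 31.1 and 30.9 FPKM in wild type (log2 fold change -0.0076). Cdca8, which encodes borealin, stood at 0.02. All 3 genes were lower in overexpression replicate 3 than in any wild type library.

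All 5 spindle checkpoint genes had estimates above 0 (beside 53.2% of tested genes), from 0.04 to 0.15. Rescaled to the same FPKM sum, Bub3 turned to -0.025. Bub1b, which encodes BUBR1, an inhibitor of Cdc20, had 25.7, 25.5 and 24.3 FPKM with overexpression, against 23.5, 23.1 and 21.2 FPKM in wild type (log2 fold change 0.15, SE 0.06, limma adjusted p = 0.842). The groups did not overlap. Bub3, its binding partner, had 21.1, 20.4 and 21.1 FPKM with overexpression and 19.6, 20.1 and 21.3 FPKM in wild type. Here the highest library was wild type replicate 3. Bub1 and Mad2l1 both had a log2 fold change of 0.10 and Ttk, the Mps1 kinase, one of 0.05, all with overlapping groups.

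At the centromere and kinetochore 6 of 7 genes had estimates above 0, beside 53.2% of tested genes. Cenpe, the kinetochore motor, had 16.5, 16.9 and 16.2 FPKM with overexpression, against 15.2, 14.5 and 15.3 FPKM in wild type (log2 fold change 0.13, SE 0.05, limma adjusted p = 0.842), without overlap. The 4 subunits of the Ndc80 complex, which binds microtubule ends, did not share 1 pattern. Spc24 had 32.8, 29.3 and 28.3 FPKM with overexpression and 25.2, 24.9 and 31.9 FPKM in wild type (log2 fold change 0.14), whereas Spc25, its direct partner, had 12.7, 13.8 and 12.2 FPKM with overexpression and 14.0, 12.1 and 13.4 FPKM in wild type (-0.03). Spc24 was high in wild type replicate 3, where Ndc80 was at its lowest, with 19.5, 21.2 and 20.2 FPKM with overexpression and 18.8, 19.98 and 16.6 FPKM in wild type. Nuf2 stood at a log2 fold change of 0.08, Cenpa, the centromeric histone, at 0.04 and Cenpf at 0.0077.

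All 8 mitotic kinesins had estimates above 0 (beside 53.2% of tested genes), from 0.0059 to 0.14. Rescaled to the same FPKM sum, Kif18a turned to -0.045. Kif11, the motor that pushes spindle poles apart, had the highest level of the 8, with 27.3, 27.5 and 26.5 FPKM with overexpression and 25.95, 25.8 and 25.0 FPKM in wild type (log2 fold change 0.08, SE 0.05, limma adjusted p = 0.843). Kif2c, a microtubule depolymerase, had 15.0, 15.3 and 13.6 FPKM with overexpression, against 12.8, 14.0 and 12.6 FPKM in wild type (0.14). Kif18a, which dampens chromosome movement, was the lowest of the 58 genes in level, with 3.66, 3.75 and 3.46 FPKM with overexpression and 3.34, 3.59 and 3.90 FPKM in wild type. The groups of Kif11 were apart by less than 1 FPKM, and those of Kif2c and Kif18a overlapped. Kif20a, which acts in cytokinesis, also had groups that did not overlap (log2 fold change 0.08), but its exons share 1271 bases with Cdc23 on the other strand. Kif4, Kif20b, Kif22 and Kif23 had log2 fold changes of 0.05, 0.03, 0.04 and 0.07.

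The 5 spindle microtubule proteins also had estimates above 0 (beside 53.2% of tested genes), from 0.08 to 0.17. Ckap2, which stabilises spindle microtubules, had 48.0, 41.5 and 47.5 FPKM with overexpression and 37.5, 37.5 and 46.9 FPKM in wild type (log2 fold change 0.17, SE 0.11, limma adjusted p = 0.843). Wild type replicate 3 lay with the overexpression libraries, and replicates 1 and 2 lay well below. Nusap1, a microtubule bundling protein, had 16.7, 17.6 and 17.0 FPKM with overexpression, against 16.15, 16.75 and 15.6 FPKM in wild type (0.08). Ckap5, a microtubule polymerase, had groups that did not overlap at 20.7, 21.5 and 20.5 FPKM with overexpression and 19.5, 20.3 and 19.1 FPKM in wild type. Tpx2, an activator of Aurka, and Dlgap5 stood at log2 fold changes of 0.09 and 0.12.

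Of the 4 cytokinesis genes, Ect2 had the largest estimate of the 58. Ect2, the exchange factor that activates RhoA at the division site, had 22.6, 19.96 and 18.7 FPKM with overexpression, against 16.5, 17.45 and 19.2 FPKM in wild type (log2 fold change 0.19, SE 0.09, limma adjusted p = 0.842). The means were 20.4 ± 1.97 and 17.7 ± 1.36 FPKM (SD, n = 3), and the replicates numbered 3 crossed. Anln, which encodes the ring scaffold anillin, had 80.1, 74.7 and 71.5 FPKM with overexpression and 68.4, 66.75 and 73.7 FPKM in wild type (0.11). Racgap1, a partner of Ect2, had 44.05, 42.4 and 39.0 FPKM with overexpression and 40.6, 40.0 and 40.8 FPKM in wild type (0.04). Prc1, which bundles the midzone microtubules, had 14.2, 13.0 and 12.8 FPKM with overexpression and 11.8, 12.5 and 12.1 FPKM in wild type, without overlap (0.13), and its exons share 911 bases with Rccd1 on the other strand.

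All 5 condensin genes had estimates above 0 (beside 53.2% of tested genes), from 0.05 to 0.10, and their groups overlapped. Rescaled to the same FPKM sum, Ncaph turned to -0.012. Smc4 had 62.7, 64.8 and 60.3 FPKM with overexpression, against 57.2, 59.0 and 61.7 FPKM in wild type (log2 fold change 0.08). Ncapg had 8.97, 9.56 and 8.21 FPKM with overexpression and 7.93, 8.51 and 8.30 FPKM in wild type (0.10), and its exons share 944 bases with Lcorl on the other strand. Ncaph had 19.6, 18.6 and 18.2 FPKM with overexpression and 17.8, 19.2 and 17.4 FPKM in wild type (0.05). In these 3 genes overexpression replicate 3 lay within the wild type range. Smc2 and Ncapd2 stood at 0.06 each.

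The proliferation marker Mki67 was at 62.6, 59.0 and 58.9 FPKM with overexpression and 60.25, 59.3 and 58.5 FPKM in wild type (log2 fold change 0.02, 95% interval -0.12 to 0.15, limma adjusted p = 0.954). Top2a, the topoisomerase that untangles sister chromatids and the most abundant of the 58, was at 85.35, 86.0 and 81.5 FPKM with overexpression and 82.9, 82.4 and 81.3 FPKM in wild type (0.04). Hmgb2, a chromatin protein of dividing cells, was at 58.4, 63.9 and 57.99 FPKM with overexpression and 58.4, 59.7 and 57.0 FPKM in wild type (0.04). In all 3 genes the means differed by less than the SD of the overexpression group, and each sign turned under at least 1 of the other scalings.

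A further 88 genes of the same machinery were drawn from 6 fixed lists, also chosen with earlier results known, and all were tested. None passed (limma, smallest adjusted p = 0.771). With FPKM as deposited 60 had estimates above 0, beside 53.2% of tested genes, and the median log2 fold change was 0.04. Rescaled to the same FPKM sum, 38 of the 88 were above 0, beside 32.9% of tested genes. At the same upper quartile it was 49, beside 45.4%, and under quantile normalization 62, beside 52.6%. The groups did not overlap in 14 genes with overexpression higher, beside 6.81% of tested genes, and in 1 with overexpression lower, beside 4.69%. APC/C genes held 6 of the 14. Anapc10, an APC/C subunit that helps bind substrates, had 6.01, 6.25 and 5.83 FPKM with overexpression, against 4.55, 4.80 and 4.72 FPKM in wild type (log2 fold change 0.31, SE 0.06, limma adjusted p = 0.771). It was the 1 gene of the 88 with an unadjusted p below 0.05, and its estimate was larger than that of any of the 58. Anapc7, another subunit, stood at 0.12 without overlap.

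The other lists had medians between 0.02 and 0.06, beside 0.01 over all tested genes. Their counts above 0 are for FPKM as deposited and are to be read beside 53.2% of tested genes. Among cohesin genes 9 of 12 were above 0, led by Stag1 (log2 fold change 0.13, groups not overlapping) and Cdca5, which encodes sororin (0.11). In the constitutive centromere network 10 of 16 were above 0, and Cenpw and Cenpn stood at 0.23 and 0.12 with overlapping groups. Of the outer kinetochore genes 11 of 15 were above 0, with Dsn1 at 0.16 (no overlap) and Ska3 at 0.15. Augmin and gamma-tubulin genes were nearly even, 8 of 15 above 0, and Tubg1 stood at 0.20 with overlapping groups and Tubgcp2 at 0.11 without overlap. Nedd1, which anchors gamma-tubulin complexes and was singled out after its values were seen, was the 1 gene of the 88 with all overexpression libraries below wild type, at 15.9, 16.5 and 16.8 FPKM with overexpression and 17.45, 17.5 and 17.8 FPKM in wild type (log2 fold change -0.10, limma adjusted p = 0.842). Of 14 regulators of late-cycle transcription, among them MuvB and NF-Y subunits, 11 were above 0, with Tfdp1 at 0.13 and Rbbp4 at 0.11 (no overlap).

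Weighting the libraries by their estimated quality changed the calls. With limma array weights 10 of the 58 genes passed, all with overexpression higher, beside 18.3% of all tested genes (11.1% with overexpression higher). They were Anln, Aurka, Bub1b, Ccna2, Ccnb1, Cdc20, Cenpe, Ect2, Smc4 and Spc24, with log2 fold changes of 0.12 to 0.22. Of the 88 further genes 18 passed, 17 of them with overexpression higher. The estimated weights were 4.64 for overexpression replicate 2 and 2.155 and 2.57 for the near-identical wild type replicates 1 and 2, against 0.28 and 0.59 for overexpression replicates 1 and 3 and 0.24 for wild type replicate 3. Once the near-identical pair was averaged, the weighted fit called 0 of the 58 (limma, smallest adjusted p = 0.913). It also called 0 of all 12222 tested genes.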

How the data were processed

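RNA of 6 NIH3T3 libraries was sequenced as paired-end reads on an Illumina HiSeq, per the labels' protocols. Per the submitters' processing notes the build was mm10. What aligned and counted the reads, with which strand setting and annotation, is not given in the sources used here. The authors deposited 1 table of FPKM per library, per the file headers. Symbols came from GENCODE M21 (24816 of 24938 IDs matched), promoters from RefSeq on GRCm38.p6, the same assembly as mm10.

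Group means of log2(FPKM + 1) were compared with limma 3.58.1 (R 4.3.3; trend = TRUE, robust = TRUE; no other covariate), over genes above 1 FPKM in at least 3 libraries, and Benjamini-Hochberg adjustment at 0.05 over all of them. Such fold changes understate changes of low genes. It was tested on simulated data. Reads were recovered from the steps of the FPKM values within 0.01 reads plus a relative 1e-08, with annotated exon lengths for 79.5% of genes and searched lengths for the others (17 of the 58). They cover counting error only and served for depth, library pairs and limma-voom.

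The genes, role groups and lists were chosen with earlier results of these data known. Genes with values in all libraries were, in each role, those with the smallest p, the largest absolute and the lowest fold change and the highest level. Ccnb1, Cdk1, Plk1, Ndc80, Prc1 and Ckap5 were added after their values were seen. In the further lists the 2 smallest p were named. Alternatives covered scaling, filters, pseudocounts, the replicate block, left-out, averaged or weighted libraries and limma-voom.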

Additional observations from a re-analysis of the deposited data

How the results depend on the processing

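The count of 0 genes past the threshold, among the 58 and among the 88, held under all alternatives except array weights. Array weights gave 10 of the 58 and 18 of the 88, beside 18.3% of all tested genes. Over all tested genes, 2 passed without wild type replicate 3 and 1 without overexpression replicate 1. The median log2 fold change of the 58 (0.08) was 0.016 with libraries rescaled to the same FPKM sum and moved less under the others. Genes of the 58 with overexpression higher and groups not overlapping numbered 2 with that rescaling (2.32% of tested genes). They numbered 14 with wild type replicates 1 and 2 averaged (8.84%), with or without array weights. When 1 library was left out they numbered 9 to 28, beside shares of 8.80% to 21.8% of tested genes.

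With array weights, passing genes had 0.14 (Anln), 0.20 (Aurka), 0.12 (Bub1b), 0.22 (Ccna2), 0.21 (Ccnb1), 0.22 (Cdc20), 0.17 (Cenpe), 0.21 (Ect2), 0.14 (Smc4) and 0.21 (Spc24). Signs were followed gene by gene for the 28 genes named by rule, and those that turned are listed; the cause was not tested. The counts of all 58 genes above 0 under each scaling stand with the scalings. Rescaled to the FPKM sum, signs turned for Aurkb (-0.055), Bub3 (-0.025), Espl1 (-0.057), Hmgb2 (-0.023), Kif18a (-0.045), Mki67 (-0.046), Ncaph (-0.012), Racgap1 (-0.019) and Top2a (-0.028). At the same upper quartile they turned for Aurkb (-0.016), Espl1 (-0.019), Kif18a (-0.014) and Mki67 (-0.0066), and under quantile normalization Aurkb (-0.028), Espl1 (-0.010), Hmgb2 (-0.017), Mki67 (-0.046) and Top2a (-0.038). With wild type replicates 1 and 2 averaged they turned for Aurkb (-0.0027) and Kif18a (-0.017), with array weights Aurkb (-0.0065), Espl1 (-0.0024), Incenp (0.017), Mki67 (-0.013), Spc25 (0.062) and Wee1 (0.22), and with both Aurkb (-0.033), Birc5 (-0.0051), Bub3 (-0.0010), Incenp (0.024), Spc25 (0.031) and Wee1 (0.095). With 1 library left out, values ran from -0.018 to 0.030 for Aurkb, -0.047 to 0.15 for Birc5, -0.026 to 0.048 for Espl1, -0.0033 to 0.065 for Hmgb2, -0.071 to 0.082 for Incenp, -0.037 to 0.052 for Kif18a, -0.010 to 0.033 for Mki67, -0.081 to 0.016 for Spc25 and -0.13 to 0.12 for Wee1.

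With the replicate number as a block, 0 of the 58 passed and 0 had an unadjusted p below 0.05, against 3 without it. The numbers were not shown to pair libraries: deviations of same-numbered libraries correlated at -0.10, 0.083 and 0.0025 across genes. No overexpression library correlated best with its own number, and of the wild type libraries only replicate 2 did. The filter at 5 FPKM left out Kif18a. Pseudocounts, filters and limma-voom turned no sign and changed no call among those 28. The lowest read number of any of the 58 genes in a library was 318. There were 3 libraries a group, and wild type replicates 1 and 2 were near-identical; what limited the calls was not tested.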
